A study of Mus musculus with 18 samples.

Results

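Cardiomyocyte RNA from infarcted hearts of Salv cKO mice was compared with cardiomyocyte RNA from uninjured hearts of control mice, to measure how far the injured mutant state lay from the uninjured one across all expressed genes. The 6 libraries compared are the 3 of infarcted Salv cKO and the 3 of sham control, out of 18 in the series and out of 12 made by translating ribosome affinity purification (TRAP), in which tagged ribosomes are pulled down with the RNA bound to them. The groups were taken from the labels alone. Salv is Salvador (gene Sav1), and cKO stands for conditional knockout. All mice were adults of 8 to 10 weeks. Their left anterior descending coronary artery was ligated, which causes a myocardial infarction, or they had sham surgery, in each case 6 weeks before RNA was taken. The controls are labelled wild type. The sources used here do not give the promoter of the recombinase, the allele that tags the ribosomes, or whether each library is 1 animal. The p-values therefore rest on a spread between libraries that may be technical. Because the 2 groups differ in both genotype and surgery, their contrast alone cannot tell the 2 apart. The infarcted control and sham Salv cKO TRAP libraries, 3 of each, are therefore given beside it.

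The Hippo pathway is a kinase cascade that limits organ growth. Salvador is the adaptor that helps the kinases Mst1 and Mst2 activate Lats1 and Lats2, which phosphorylate the coactivator Yap and keep it out of the nucleus. In the nucleus Yap binds Tead factors and turns on genes of growth, adhesion and the cell cycle, and in adult heart muscle, whose cells rarely divide, loss of Salvador is known for releasing this brake. After an infarction, surviving heart muscle is known for a fetal gene programme, a shift away from fatty acid oxidation, and changes of calcium handling.

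The 12 TRAP libraries held 3240871 to 15902590 counts, and the deepest was sham control library 3. A floor of 3 counts in 1 library lay between 0.189 and 0.926 CPM (counts scaled to a library of fixed size), a limit that covers counting error only. Of the 16 cardiomyocyte markers 16 were tested, and together they made up 17.2% to 18.7% of counts in sham control and 16.7% to 18.9% in infarcted Salv cKO, so the labelled cell type was present in both. Sham control library 2 held 569 counts of Y chromosome genes, while the other 5 libraries compared held at most 9 each. RNA that was purified with ribosomes from bulk tissue does not separate fewer cells of a type from less RNA per cell. Sav1 itself (chromosome 12, 69965012 to 69987002, minus strand, GRCm38) was at 7.72, 5.51 and 5.70 CPM in sham control and at 5.65, 5.73 and 3.48 CPM in infarcted Salv cKO. These groups overlapped, and the log2 fold change of -0.31 (SE 0.48) did not pass the test (edgeR, adjusted p = 0.814). Counts over the whole gene check the genotype label only in part, since the sources used here do not say which exons are deleted.

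How far the infarcted Salv cKO libraries lay from the uninjured ones was first measured over all 11393 genes tested, as the root mean square (RMS) difference in log2 CPM between 2 libraries. The 3 infarcted Salv cKO libraries lay at 0.798, 0.831 and 0.718 from the sham controls, a mean of 0.783 ± 0.058 (SD, n = 3). The sham controls lay 0.725 ± 0.017 (n = 3) from each other, so the third infarcted Salv cKO library was no farther from the uninjured group than the uninjured libraries were from each other. The 3 sham control values come from 3 pair distances, 0.685 to 0.749, each used in 2 of them. They are therefore not independent, and their SD is not the spread of single pairs. Infarcted control libraries lay at 0.735 ± 0.025 and sham Salv cKO libraries at 0.872 ± 0.085 (n = 3 each). Within a group, libraries lay on average 0.637 apart in infarcted Salv cKO, 0.580 in infarcted control and 0.815 in sham Salv cKO. Each distance from sham control holds the spread within both groups, so it does not measure the shift between group means alone. The infarcted Salv cKO distance was 0.048 above that of infarcted control and 0.089 below that of sham Salv cKO. Neither difference passed an exact two-sided permutation test (p = 0.3 for both, and 0.3 after Benjamini-Hochberg adjustment over the 2), and 3 libraries against 3 cannot go below 0.1. All 12 libraries thinned to the same number of counts gave 0.764 for infarcted Salv cKO, 0.730 for infarcted control, 0.821 for sham Salv cKO and 0.712 among sham controls.

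**Figure D1:**
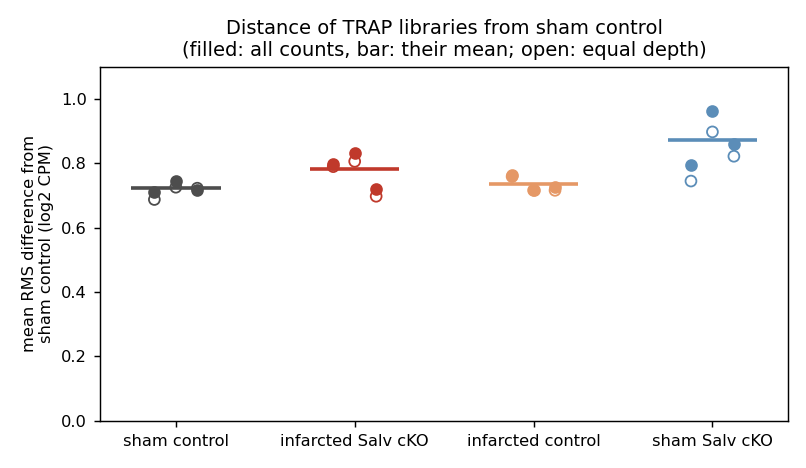
Mean RMS difference in log2 CPM of each TRAP library from the sham control libraries (a sham control library is compared with the other two), for the 4 TRAP groups of 3 libraries. Filled points are all counts, bars their group means and open points equal depth. The infarcted Salv cKO libraries lie between 0.718 and 0.831, and overlap the range of the sham controls.

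Gene by gene, 343 genes passed between infarcted Salv cKO and sham control (edgeR quasi-likelihood test, with a p under 0.05 after Benjamini-Hochberg adjustment for every gene in the fit), which is 3.01% of those tested. Of these, 65 were higher (0.571%) and 278 were lower (2.44%) in infarcted Salv cKO, so 81.0% of the calls were lower. The fold was above 2 upward (log2 above 1) for 42 genes and above 2 downward for 182. The libraries of the 2 groups did not overlap for 334 of the 343 genes, beside 19.8% of all genes tested. This split between higher and lower rests on the scaling. TMM scaling assumes that most genes do not change, and the infarcted Salv cKO libraries had factors of 1.1 to 1.14 against 0.884 to 1.07 in sham control. With library totals and no such factor the median log2 fold change of all genes moved from -0.003 to 0.20, and 204 genes passed, 115 higher and 89 lower, or 43.6% lower. The number of calls also rests on single libraries. It fell to 44 without infarcted Salv cKO library 1, to 49 without library 2, to 85 without sham control library 1 and to 94 without sham control library 3. It was 454 without infarcted Salv cKO library 3 and rose to 773 on leaving out sham control library 2, the library with Y chromosome counts.

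**Figure D2:**
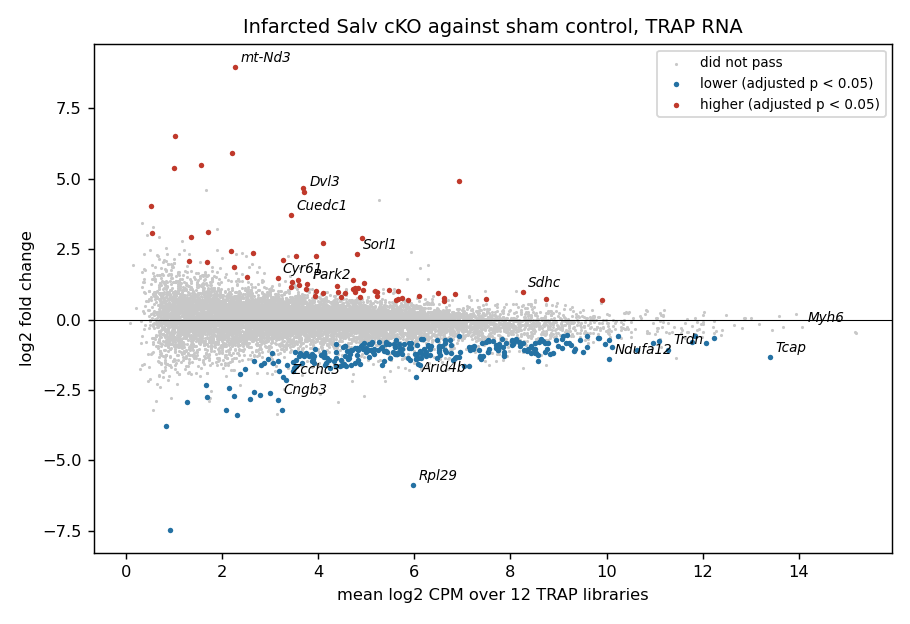
Log2 fold change of infarcted Salv cKO against sham control (vertical) by mean log2 CPM over the 12 TRAP libraries (horizontal), 1 point for each of 11393 genes, with 65 passing higher and 278 passing lower in colour. Passing lower genes extend to high mean levels, as for Tcap, and several of the highest fold changes belong to genes of low level.

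Across the passing genes, the median log2 fold change was 1.17 for the 65 higher genes and -1.13 for the 278 lower ones. Against the same sham control libraries, the 65 higher genes had a median of 0.54 in infarcted control and 0.64 in sham Salv cKO. The 278 lower genes had a median of -0.89 in infarcted control and 0.11 in sham Salv cKO. The 3 comparisons share the sham control libraries and the genes were chosen on the first of them, so these medians are a description. Pseudogenes made up 9.23% of the higher genes, 1.44% of the lower genes and 2.79% of all genes tested. The median transcript length was 3171 bases for the higher genes, 3933 for the lower and 3366.5 for all. Across genes, the log2 fold change had a Spearman rho of -0.18 with mean log2 CPM, -0.007 with transcript length and 0.072 with GC content. Genes are not independent replicates, and these 3 values describe the same 6 libraries.

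A set of 32 genes, 14 higher and 18 lower, passed in every one of the 6 fits that left out 1 library. Of the genes that the naming rule picked, 11 are among them, and they are described first. Genes picked from either end of the fold changes had to have groups that did not overlap. For those genes, here and below, the lack of overlap is therefore no further support. Dvl3, a Dishevelled protein that relays Wnt signals, was at 0.322, 2.5 and 0.519 CPM in sham control and at 29.0, 17.8 and 19.6 CPM in infarcted Salv cKO. Every infarcted Salv cKO library lay above every sham control one, and the gene rose with a log2 fold change of 4.53 (SE 0.47, adjusted p = 1.17e-05 by edgeR). Its level was 0.847 ± 0.517 CPM in infarcted control and 28.3 ± 1.63 CPM in sham Salv cKO (n = 3 each), so the high groups were those of the mutant under either surgery. Dvl3 lies on chromosome 16 (20516982 to 20534010, plus strand, GRCm38).

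Cuedc1, which encodes a protein with a ubiquitin-binding CUE domain, was at 0.643, 3.5 and 1.75 CPM in sham control and at 39.3, 17 and 21.1 CPM in infarcted Salv cKO. The groups did not overlap, and its log2 fold change was 3.71 (SE 0.43, adjusted p = 4.3e-05 by edgeR). Sorl1, a sorting receptor of endosomes, was at 9.33, 10.0 and 7.97 CPM in sham control and at 39.3, 52.5 and 43.4 CPM in infarcted Salv cKO. It rose with the smallest adjusted p of the higher genes that the naming rule picked, 2.21e-06, at a log2 fold change of 2.33 (SE 0.22, edgeR). Infarcted control stood at 14.2 ± 1.94 CPM and sham Salv cKO at 43.7 ± 3.72 CPM of Sorl1. Olfml2b, an extracellular matrix protein of the olfactomedin family, rose from 4.88 ± 1.85 to 22.7 ± 4.64 CPM, and Tmprss13, a membrane-bound serine protease, from 4.16 ± 2.76 to 22.3 ± 4.73 CPM. Their log2 fold changes were 2.26 and 2.24, and neither gene's groups overlapped.

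Pygl, the liver form of glycogen phosphorylase, which releases glucose units from glycogen, was at 4.50, 3.0 and 3.44 CPM in sham control and at 12.7, 20.4 and 14.1 CPM in infarcted Salv cKO. It rose with a log2 fold change of 2.13 (SE 0.31, adjusted p = 0.000775 by edgeR). Pygl lies 0.204 Mb from Sav1 on chromosome 12 (70190811 to 70231488, minus strand). Of the other 43 tested genes within 5 Mb of Sav1, 5 passed (11.6%, beside 3.01% of all genes tested). Beside Pygl these were Dhrs7, Rps29, Nemf and Arid4a, all lower.

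Among the lower genes, Rpl29, a protein of the large ribosomal subunit, was at 86.2, 183 and 78.4 CPM in sham control and at 2.22, 2.01 and 1.43 CPM in infarcted Salv cKO. Its log2 fold change of -5.88 (SE 0.40) had the smallest adjusted p of the genes that the naming rule picked, 1.05e-06 by edgeR. The pseudogene Gm15920, given below and outside that rule, had a smaller one. Infarcted control was at 132 ± 50.3 CPM and sham Salv cKO at 0.394 ± 0.105 CPM, so both mutant groups were low. The annotation holds 26 near-identical copies of Rpl29, among which counts can be split. Over the 12 TRAP libraries together, Rpl29 itself took 92.4% of the counts of the gene and its copies. In infarcted Salv cKO its own counts were only 20, 13 and 7. Summed with its copies, Rpl29 fell by 4.40 on the log2 scale (adjusted p = 0.00014 by edgeR). Zcchc3, a nucleic acid binding protein of innate immune sensing, fell from 18.3, 11 and 18.1 CPM to 3.99, 4.95 and 1.64 CPM (log2 fold change -2.13). Cngb3, a subunit of cyclic nucleotide gated channels known from cone photoreceptors, fell from 21.9, 7.76 and 14.6 CPM to 2.33, 1.08 and 2.66 CPM (log2 fold change -2.85). Neither gene's groups overlapped.

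Ndufa12, an accessory subunit of respiratory complex I, was at 1790, 1244 and 1454 CPM in sham control and at 423, 553 and 721 CPM in infarcted Salv cKO. It fell by 1.40 on the log2 scale (SE 0.19, adjusted p = 0.000345 by edgeR), and its groups did not overlap. Infarcted control stood between them at 1000.1 ± 118 CPM, and sham Salv cKO at 1166 ± 58.8 CPM. The processed pseudogene Gm15920, 99.5% identical to Ndufa12 over 221 bases, went the other way, from 6.75 ± 2.79 to 187 ± 53.2 CPM (log2 fold change 4.91, adjusted p = 5.15e-08 by edgeR), and was at 291 ± 52.5 CPM in sham Salv cKO. Summed with this copy, Ndufa12 fell by 1.0 on the log2 scale (adjusted p = 0.00911 by edgeR). The last of the 11, mt-Nd3, a complex I subunit that the mitochondrial genome encodes, had 0 counts in all 3 sham control libraries and was at 5.54, 9.75 and 16.0 CPM in infarcted Salv cKO. Against a floor of 3 counts in each sham control library, on the same TMM scale (0.637 CPM on average), it was at least 16.4-fold higher. The nuclear pseudogene Gm28438 is 99.7% identical to it over 345 bases and went the other way, from 12.5 to 1.38 CPM (log2 fold change -3.21). Summed, mt-Nd3 and Gm28438 were at a log2 fold change of -0.08 and did not pass (adjusted p = 0.935 by edgeR).

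Infarcted Salv cKO was also tested against infarcted control, where 38 of 11393 genes passed (0.334%), 21 higher (0.184%) and 17 lower (0.149%). Among the 11 genes, 9 passed there with adjusted p from 6.91e-07 for Rpl29 to 0.0054 for Zcchc3 (edgeR): Dvl3, Cuedc1, Sorl1, Olfml2b, Tmprss13, Pygl, Rpl29, Zcchc3 and mt-Nd3. Their log2 fold changes in that comparison included 4.66 for Dvl3, 4.51 for Cuedc1, 1.67 for Sorl1 and -6.07 for Rpl29. Cngb3, at -1.97 (adjusted p = 0.0522), and Ndufa12, at -0.82 (adjusted p = 0.0635), did not pass against infarcted control. In sham Salv cKO against sham control 291 genes passed (2.55%). There Cngb3 was at -0.47 (adjusted p = 0.557) and Ndufa12 at -0.36 (adjusted p = 0.305), while the other 9 passed. These comparisons share libraries with the first.

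**Figure D3:**
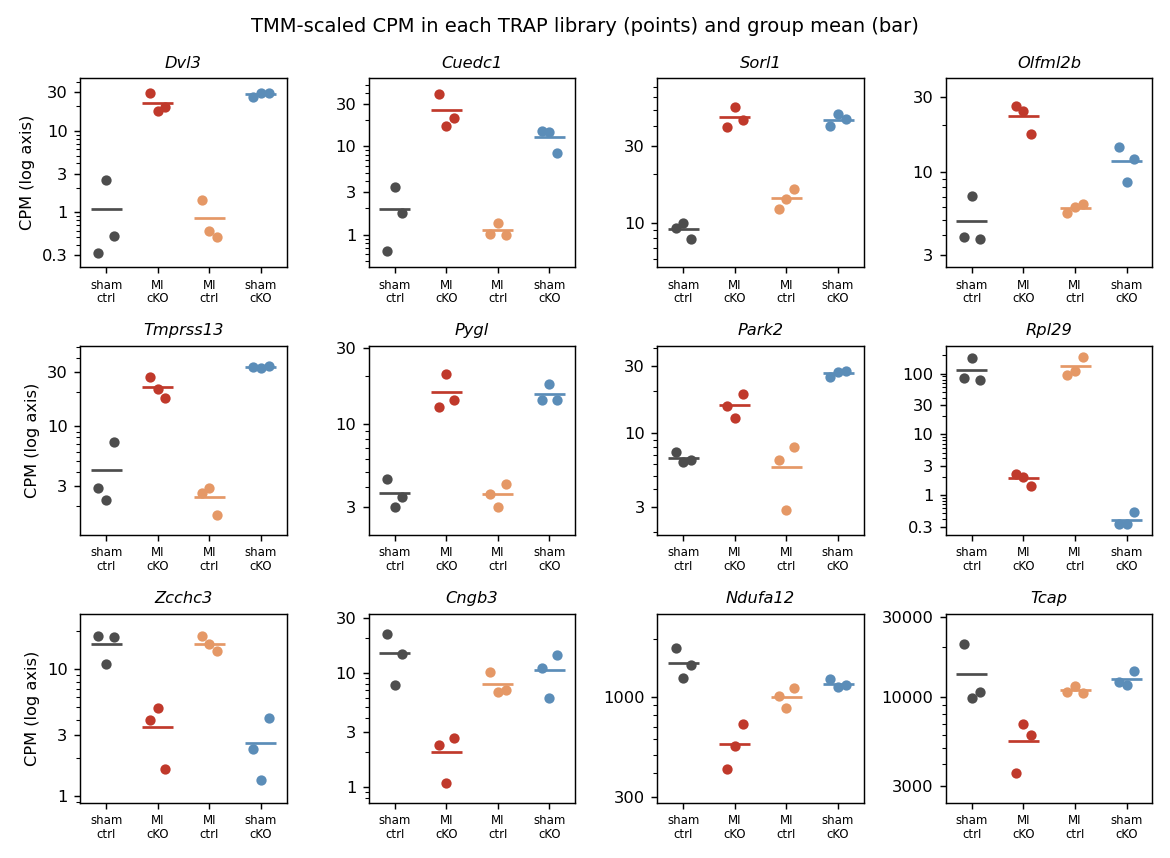
TMM-scaled CPM on a log axis in each of the 12 TRAP libraries for 12 named genes, with bars at the mean of each group of 3. The levels of Dvl3, Sorl1, Pygl and Rpl29 part by genotype, while Ndufa12 is lowest in the 3 infarcted Salv cKO libraries, between 423 and 721 CPM.

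Park2 (parkin), the ubiquitin ligase that marks damaged mitochondria for removal, was at 7.4, 6.26 and 6.42 CPM in sham control and at 15.6, 12.9 and 19.0 CPM in infarcted Salv cKO. The groups did not overlap, and Park2 rose with a log2 fold change of 1.25 (SE 0.31, adjusted p = 0.029 by edgeR). Its level was 5.77 ± 2.64 CPM in infarcted control and 26.6 ± 1.30 CPM in sham Salv cKO, and against infarcted control it was higher by 1.45 (adjusted p = 0.0342). It was the only one of 33 tested genes of mitophagy and mitochondrial dynamics that passed, and the median of that list was -0.04. The call against sham control held when sham control library 2 was left out and was lost when any of the other 5 libraries was left out, with adjusted p up to 0.115.

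The gene lists are given by how many of their tested members passed, beside 0.571% of all genes tested that rose and 2.44% that fell. Of 22 tested genes of the Hippo pathway, 1 fell and none rose. This was Map4k4, a kinase that acts beside Mst1 and Mst2 on Lats1 and Lats2, which went from 133, 102 and 113 CPM in sham control to 59.7, 52.8 and 69.4 CPM (log2 fold change -0.94, adjusted p = 0.0176 by edgeR). Its level also fell in infarcted control, by 0.97 on the log2 scale (adjusted p = 0.0391). Yap1 was at 20.9, 18.8 and 24.6 CPM in sham control and at 48.2, 31.7 and 29.3 CPM in infarcted Salv cKO, without overlap, but its log2 fold change of 0.76 (SE 0.25) did not pass (adjusted p = 0.112).

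Of 22 tested targets of Yap, 1 rose and none fell, and the list's median was 0.05. The gene that rose was Cyr61, a matrix protein that signals through integrins. It was at 3.22, 6.51 and 3.95 CPM in sham control and at 17.5, 11 and 9.0 CPM in infarcted Salv cKO, a log2 fold change of 1.48 (SE 0.39, adjusted p = 0.0424 by edgeR), with no overlap. Cyr61 had a log2 fold change of 1.41 in infarcted control (adjusted p = 0.0724) and of -0.17 in sham Salv cKO. Ctgf, a relative of Cyr61 that was named for its list after values were seen, was at 44.3 ± 35.9 CPM in sham control and 167 ± 189.6 CPM in infarcted Salv cKO, with overlap, and did not pass (adjusted p = 0.341). Ankrd1, a cardiac target, was higher by 0.14 on the log2 scale and did not pass (adjusted p = 0.906). The calls of Map4k4 and Cyr61 were each lost without infarcted Salv cKO library 1 or 2 or sham control library 1 or 3, with adjusted p up to 0.113 and 0.253.

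The 250 bases upstream of the RefSeq starts of Cyr61 (chr3:145649986-145650235, minus strand, GRCm38.p6) and of the natriuretic peptide gene Nppb (chr4:147985650-147985899, plus strand) are shown because they hold the core of the Tead binding motif, GGAATG or its reverse complement CATTCC, at nearly the same place. Capitals mark the motif, which begins 103 bases before the start of Cyr61 and 105 before that of Nppb. These windows were picked for this likeness, so it is no result. The window of the myosin gene Myh7 also holds the motif, which begins 201 bases before the start.
Cyr61: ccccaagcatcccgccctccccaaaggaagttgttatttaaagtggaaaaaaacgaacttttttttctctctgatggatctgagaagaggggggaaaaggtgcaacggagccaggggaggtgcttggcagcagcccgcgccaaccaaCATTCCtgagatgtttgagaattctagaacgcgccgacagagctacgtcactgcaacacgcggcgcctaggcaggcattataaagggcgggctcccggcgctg
Nppb: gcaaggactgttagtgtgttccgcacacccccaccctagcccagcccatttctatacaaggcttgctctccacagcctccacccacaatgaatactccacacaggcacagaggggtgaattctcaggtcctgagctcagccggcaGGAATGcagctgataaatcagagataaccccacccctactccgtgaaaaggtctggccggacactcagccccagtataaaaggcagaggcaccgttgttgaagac
The motif, on either strand, was in 12.6% of all 32851 RefSeq windows of this length, and in 11 of the 48 named genes that had a window (22.9%, beside 14.4% of all genes with one). A match is a description of letters and shows no binding.

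Of 28 tested genes of cardiac stress and the fetal programme, 3 rose and none fell, with a median of 0.25. Fhl2, a scaffold at the sarcomere and in the nucleus, went from 740, 739 and 938 CPM to 1212, 1492 and 1183 CPM (log2 fold change 0.68, adjusted p = 0.0242 by edgeR). Rcan1, a feedback inhibitor of calcineurin, averaged 91.4 ± 20.6 and 171 ± 65.1 CPM, and Xirp1, an actin-binding protein of the intercalated disc, 66.7 ± 15.6 and 126 ± 49.9 CPM. None of the 3 overlapped between the groups. In sham Salv cKO their log2 fold changes lay between -0.13 and -0.02. The classic markers of stressed heart muscle did not pass. Nppa (atrial natriuretic peptide) was at 107, 382 and 57.2 CPM in sham control and at 551, 199 and 348 CPM in infarcted Salv cKO (log2 fold change 1.02, SE 0.80, adjusted p = 0.606). In 1 of 15 other settings Nppa did pass (adjusted p = 0.0357 by edgeR). That fit left out sham control library 2 and sham Salv cKO library 3, the 2 libraries with Y chromosome counts. Nppb (log2 fold change 0.85, SE 0.71), Myh6 (-0.27, SE 0.49) and Myh7 (0.08, SE 0.43), the alpha and beta myosin heavy chains, did not pass either, with adjusted p of 0.63, 0.851 and 0.955, and sham control library 2 was the highest sham library for Nppa, Nppb and Myh7. None of the list passed without infarcted Salv cKO library 1 or sham control library 1, and 1 passed without infarcted Salv cKO library 2 or sham control library 3.

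Of 50 cell cycle genes in the list 34 were tested, of which 3 rose and 1 fell. The list's median of 0.80 stood above the -0.003 of all genes tested. The filter keeps a gene of low level if as many libraries as 1 group holds reach it. Low members can thus enter through the group where they are high, so this median is a description. Rrm1, a subunit of ribonucleotide reductase, which makes deoxynucleotides, was at 6.75, 8.01 and 8.10 CPM in sham control and at 20.3, 20.7 and 12.5 CPM in infarcted Salv cKO (log2 fold change 1.22, adjusted p = 0.02 by edgeR). E2f1, a transcription factor of entry into DNA synthesis, was at 0.643, 4.01 and 0.454 CPM and at 6.2, 5.88 and 12.3 CPM (log2 fold change 2.43, adjusted p = 0.038). Ccna2 (cyclin A2) averaged 0.339 ± 0.154 and 2.65 ± 1.08 CPM (adjusted p = 0.0494), a sham level near the floor of 3 counts. It had 20, 12 and 19 counts in infarcted Salv cKO and at most 9 in any other TRAP library. It therefore entered the test through infarcted Salv cKO, and its call is no separate support. Cenpf, a kinetochore protein, fell from 28.9 ± 15.9 to 9.93 ± 1.65 CPM (log2 fold change -1.56, adjusted p = 0.0194), and its groups overlapped. Mki67, the proliferation marker, averaged 2.49 and 8.23 CPM and did not pass (adjusted p = 0.0925). The median of the same list was -0.09 in infarcted control and 0.22 in sham Salv cKO against sham control, and 0.77 in infarcted Salv cKO against infarcted control, where none of its genes passed.

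All 4 cell cycle calls were lost without infarcted Salv cKO library 1 or 2 or sham control library 1 or 3, except that Ccna2 was not tested without infarcted Salv cKO library 1. The call of E2f1 was also lost without infarcted Salv cKO library 3, and Ccna2 passed in none of the 5 leave-one-out fits that tested it. Markers of other cells that could carry dividing cells moved as follows, and their part in the cell cycle values was not tested. None of 23 tested leukocyte markers passed. The summed levels given here are CPM of library totals without TMM factors, over all list genes in the data, tested or not. For 30 leukocyte genes they were 526 to 1252 CPM in sham control and 616 to 970 CPM in infarcted Salv cKO. None of 43 tested fibroblast and matrix genes passed, and 46 summed to 2051 to 5914 and 2588 to 4904 CPM. No member of these 2 lists was at 0 in all 6 libraries. None of 5 tested immunoglobulin genes passed, and 10 summed to 7.17 to 20.3 and 27.7 to 36.4 CPM, ranges that did not overlap.

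Of 20 tested endothelial markers 2 fell and none rose. Their sums of library-total CPM were 972 to 1342 in sham control and 800 to 1088 in infarcted Salv cKO, without TMM factors. TMM factors were larger in infarcted Salv cKO, so TMM scaling would lower these sums there relative to sham control. Flt1, a receptor for vascular endothelial growth factor, went from 333, 288 and 310 CPM to 165, 161 and 210 CPM (log2 fold change -0.80, adjusted p = 0.0294 by edgeR). Fabp4, a fatty acid carrier of capillary endothelium and fat cells, went from 280, 365 and 298 CPM to 179, 163 and 228 CPM (log2 fold change -0.73, adjusted p = 0.0479). The groups did not overlap for either gene. Flt1 fell in infarcted control too (-0.89, adjusted p = 0.0391), while Fabp4 was at -0.07 there. Pecam1 and Cdh5, which define endothelium, averaged 29.2 and 8.60 CPM in sham control and 25.1 and 10.9 CPM in infarcted Salv cKO and did not pass. Both calls were lost without infarcted Salv cKO library 1 or 2 or sham control library 1 or 3, and that of Fabp4 also without sham control library 2, with adjusted p up to 0.217. No marker of mural (12 tested), epicardial (7), adipocyte (3), Schwann (4) or erythroid cells (4) passed, and none of the 16 cardiomyocyte markers did.

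Of 77 tested nuclear-encoded genes of oxidative phosphorylation, 6 fell and 1 rose. Beside Ndufa12, the complex I subunits Ndufa2 and Ndufa3 fell, from 5962, 4222 and 4553 CPM to 2600, 2659 and 3066 CPM and from 2365, 1748 and 2360 CPM to 1073, 1306 and 1432 CPM. Their log2 fold changes were -0.82 (adjusted p = 0.0101 by edgeR) and -0.76 (adjusted p = 0.0218). Ndufb9 of complex I, Cox8b of cytochrome c oxidase and Atp5k of ATP synthase fell by less than 2-fold. The gene that rose was Sdhc, a membrane anchor of succinate dehydrogenase, which went from 198, 191 and 252 CPM to 465, 423 and 364 CPM (log2 fold change 0.96, adjusted p = 0.00634). The groups did not overlap for Ndufa2, Ndufa3 or Sdhc. Negative values were found for 57 of the 77, with a median of -0.18 that became 0.03 with library totals. The call of Sdhc was lost without infarcted Salv cKO library 1 alone (adjusted p = 0.0503), and that of Ndufa2 without infarcted Salv cKO library 1 or 2. The call of Ndufa3 was lost without infarcted Salv cKO library 1 or 2 or sham control library 1 or 3 (adjusted p up to 0.146).

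Fuel genes passed in small numbers. Of 44 tested genes of fatty acid oxidation 2 fell and none rose. Ppargc1b, a coactivator of mitochondrial and fatty acid genes, went from 346, 208 and 328 CPM to 105, 111 and 148 CPM (log2 fold change -1.28, adjusted p = 0.0124 by edgeR), and it also fell in infarcted control (-1.13, adjusted p = 0.0391). Etfb, which passes electrons from fatty acid oxidation to the respiratory chain, averaged 2124 and 1198 CPM (log2 fold change -0.83, adjusted p = 0.0275). Of 35 tested genes of glucose use 2 rose and none fell, Pygl and the glycolytic enzyme Pgk1, which went from 32.8, 52.8 and 30.1 CPM to 73.4, 79.1 and 79.2 CPM (log2 fold change 1.01, adjusted p = 0.019). Pgk1 has 2 near-identical copies in the annotation and took 75.5% of the TRAP counts of the gene and its copies. Summed with them, its log2 fold change was 0.73 (adjusted p = 0.0465 by edgeR). The calls of Ppargc1b, Etfb and Pgk1 were each lost without infarcted Salv cKO library 1 or 2 or sham control library 1 or 3, with adjusted p up to 0.182.

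**Figure D4:**
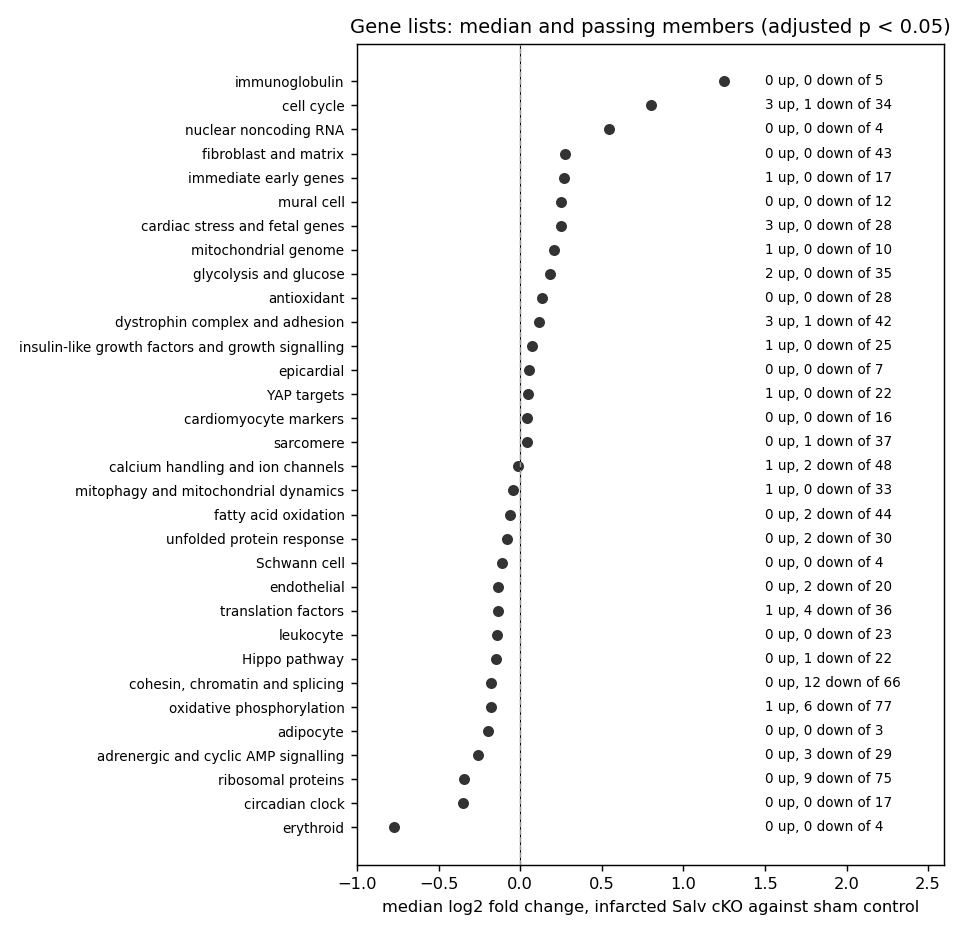
Median log2 fold change of infarcted Salv cKO against sham control for each gene list with tested members (points), with the number of members that passed in each direction and the number tested at the right. The dashed line is the median of all genes tested, -0.003, and the medians of oxidative phosphorylation and of cohesin, chromatin and splicing, both -0.18, turn to 0.03 and 0.02 with library totals.

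Of 75 tested ribosomal protein genes 9 fell and none rose, 68 had negative values, and the median was -0.34 with TMM scaling and -0.13 with library totals. After Rpl29, the smallest p belonged to Rpl36, which went from 1537, 1185 and 1167 CPM to 603, 604 and 782 CPM (log2 fold change -0.97, adjusted p = 0.00634 by edgeR). Rps29 averaged 1255 and 680 CPM and Rpl28 1054 and 662 CPM, and neither gene's groups overlapped. Rpl36 has 7 near-identical copies and Rpl28 has 4. Of 36 tested translation factors 4 fell and 1 rose. Eif5, which triggers start codon selection, fell from 678, 428 and 592 to 236, 174 and 332 CPM (log2 fold change -1.19), Eif5b, which joins the subunits, fell by 1.07 on the log2 scale, and Eif2s2, a part of initiation factor eIF2, by 1.13. Eif4a2, an RNA helicase of initiation, rose from 17.7, 24.5 and 18.5 to 43.8, 50.8 and 36 CPM (log2 fold change 1.11, adjusted p = 0.0162). The number of ribosomal protein genes that passed was 1 without infarcted Salv cKO library 1 or 2, 2 on leaving out sham control library 1 and 5 on leaving out library 3, and no translation factor passed in any of those 4 fits.

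Of 66 tested genes of cohesin, chromatin and splicing, 12 fell (18.2%, beside 2.44% of all genes tested) and none rose. They were the chromatin remodellers Chd6 and Chd2, the splicing regulator Rbfox1, the cohesin loader Nipbl and cohesin subunit Smc3, the splicing proteins Cdc40, Rbm25, Rbm39 and Srsf11, the methyltransferase Kmt2c, the acetyltransferase Crebbp and the corepressor subunit Ncor1. Chd6 went from 88.4, 64.3 and 85.4 CPM to 31.8, 29.1 and 40.9 CPM (log2 fold change -1.23, adjusted p = 0.00713 by edgeR). Nipbl went from 122, 83.4 and 121 CPM to 47.3, 34.1 and 74.5 CPM (log2 fold change -1.07, adjusted p = 0.0204). Neither gene's groups overlapped. In infarcted control against sham control, 9 of the list passed lower and none higher. The list's median was -0.18 in infarcted Salv cKO, -0.43 in infarcted control and 0.13 in sham Salv cKO, each against the same sham controls. It was -0.05 with trends of transcript length and GC content removed, where 13 members passed, and 0.02 with library totals, where 3 passed. None of the list passed without infarcted Salv cKO library 1 or 2, leaving out sham control library 1 left 3, and leaving out library 3 left 1.

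Arid4b, a subunit of a histone deacetylase complex, went from 110, 68.1 and 161 CPM to 27.0, 22.8 and 33.4 CPM (log2 fold change -2.04, adjusted p = 0.0171 by edgeR). Hdac1, a histone deacetylase, went from 8.68, 8.01 and 23.8 CPM to 2.55, 0.464 and 4.09 CPM (log2 fold change -2.60, adjusted p = 0.0256). For both, the highest sham control library was the third, and no library of one group reached the other group. Setd5, Hmgxb4, Kin and Zrsr1, which act in chromatin, DNA repair and splicing, had log2 fold changes between -2.06 for Kin and -1.66 for Zrsr1. Nmb (the peptide neuromedin B) at -1.82 and Capn15 (a calpain protease) at -1.72 fell as well. Against infarcted control none of these 8 genes passed, and their log2 fold changes lay between -1.23 for Nmb and 0.11 for Kin. In infarcted control against sham control, Kin (-2.17), Capn15 (-1.83), Arid4b (-1.73), Zrsr1 (-1.53) and Setd5 (-1.51) passed too (adjusted p 0.0391 to 0.0481 by edgeR). Hmgxb4 (-1.69), Hdac1 (-1.56) and Nmb (-0.59) did not pass there. The call of Nmb in infarcted Salv cKO against sham control was lost without infarcted Salv cKO library 1 alone. Those of the other 7 were lost without infarcted Salv cKO library 1 or 2 and without at least 1 of sham control libraries 1 and 3, with adjusted p up to 0.21.

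Among genes of contraction and its control, Tcap (telethonin), which anchors titin at the Z disc, was at 20840, 9866 and 10754 CPM in sham control and at 3563, 6921 and 5981 CPM in infarcted Salv cKO. It was the only one of 37 tested sarcomere genes that passed, with a log2 fold change of -1.33 (SE 0.27, adjusted p = 0.019 by edgeR), and its groups did not overlap. Infarcted control was at 11056 ± 603 CPM and sham Salv cKO at 12812 ± 1281 CPM, and the difference between infarcted Salv cKO and infarcted control did not pass (log2 fold change -1.01, adjusted p = 0.23). Of 48 tested calcium handling and ion channel genes, 2 fell and 1 rose. Trdn (triadin), which ties calsequestrin to the ryanodine receptor, averaged 2802 ± 959 and 1336 ± 74.5 CPM. Calr (calreticulin), a calcium-binding chaperone of the endoplasmic reticulum, averaged 577 ± 302 and 256 ± 33.9 CPM. Rrad, a small GTPase that dampens calcium channels, rose from 77.8, 67.1 and 67.1 CPM to 104, 129 and 128 CPM (log2 fold change 0.77, adjusted p = 0.0166), and it had the same size of change in infarcted control (0.78, adjusted p = 0.0391). The call of Tcap was lost without infarcted Salv cKO library 1 (adjusted p = 0.0753), that of Rrad without infarcted Salv cKO library 2 or sham control library 3, and those of Trdn and Calr without infarcted Salv cKO library 1 or 2 or sham control library 3, among others.

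Of 29 tested genes of adrenergic and cyclic AMP signalling 3 fell and none rose. Gnas, the stimulatory G protein subunit, was at 18.6, 10.8 and 16.6 CPM in sham control and at 4.76, 6.81 and 4.09 CPM in infarcted Salv cKO (log2 fold change -1.55, adjusted p = 0.0194 by edgeR). The kinase anchor Akap13 averaged 200.5 and 89.3 CPM and Prkar2a, a regulatory subunit of protein kinase A, 440.3 and 258 CPM (adjusted p = 0.0242 and 0.0486). Of 30 tested genes of the unfolded protein response 2 fell, the chaperone Hsp90b1 (from 510 ± 212 to 222 ± 16.6 CPM) and Calr. Of 42 tested genes of the dystrophin complex and adhesion, 3 rose and 1 fell. Ctnna1 (alpha catenin), which links cadherins to actin, went from 333, 340 and 335 CPM to 614, 597 and 468 CPM (log2 fold change 0.73, adjusted p = 0.0162). Cfl1 (cofilin), which severs actin filaments, averaged 16.5 and 31.2 CPM, Xirp1 was given above, and Fermt2 (kindlin 2), which activates integrins, fell from 331 ± 47.7 to 178 ± 53.0 CPM. In infarcted control Cfl1 rose and Fermt2 fell too (0.999 and -1.12, adjusted p = 0.0496 and 0.0391 by edgeR), while Ctnna1 and Xirp1 did not pass. In these 3 lists no gene passed without infarcted Salv cKO library 1 or 2.

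The remaining higher genes of the rule were Igfbp4, Phc2, Prune2 and Snapc2. Igfbp4, which binds insulin-like growth factors, was the only one of 25 genes of growth signalling that passed, at 10.9, 23.3 and 15.2 CPM in sham control and 52.6, 40.6 and 28.0 CPM in infarcted Salv cKO (log2 fold change 1.30, adjusted p = 0.0204 by edgeR). It rose in infarcted control as well (1.48, adjusted p = 0.0391). Phc2, a Polycomb protein, averaged 6.67 and 17.5 CPM, Prune2 15.4 and 41.8 CPM, and Snapc2, a factor for small nuclear RNA genes, 5.72 and 14.6 CPM. No gene passed among 28 antioxidant and 17 circadian clock genes or 4 nuclear noncoding RNAs, and Cyr61 was the only one of 17 immediate early genes that did. The calls of Igfbp4, Phc2 and Snapc2 were lost without infarcted Salv cKO library 1 or 2 or sham control library 1 or 3, with adjusted p up to 0.244, and that of Prune2 without infarcted Salv cKO library 2 or sham control library 1.

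**Figure D5:**
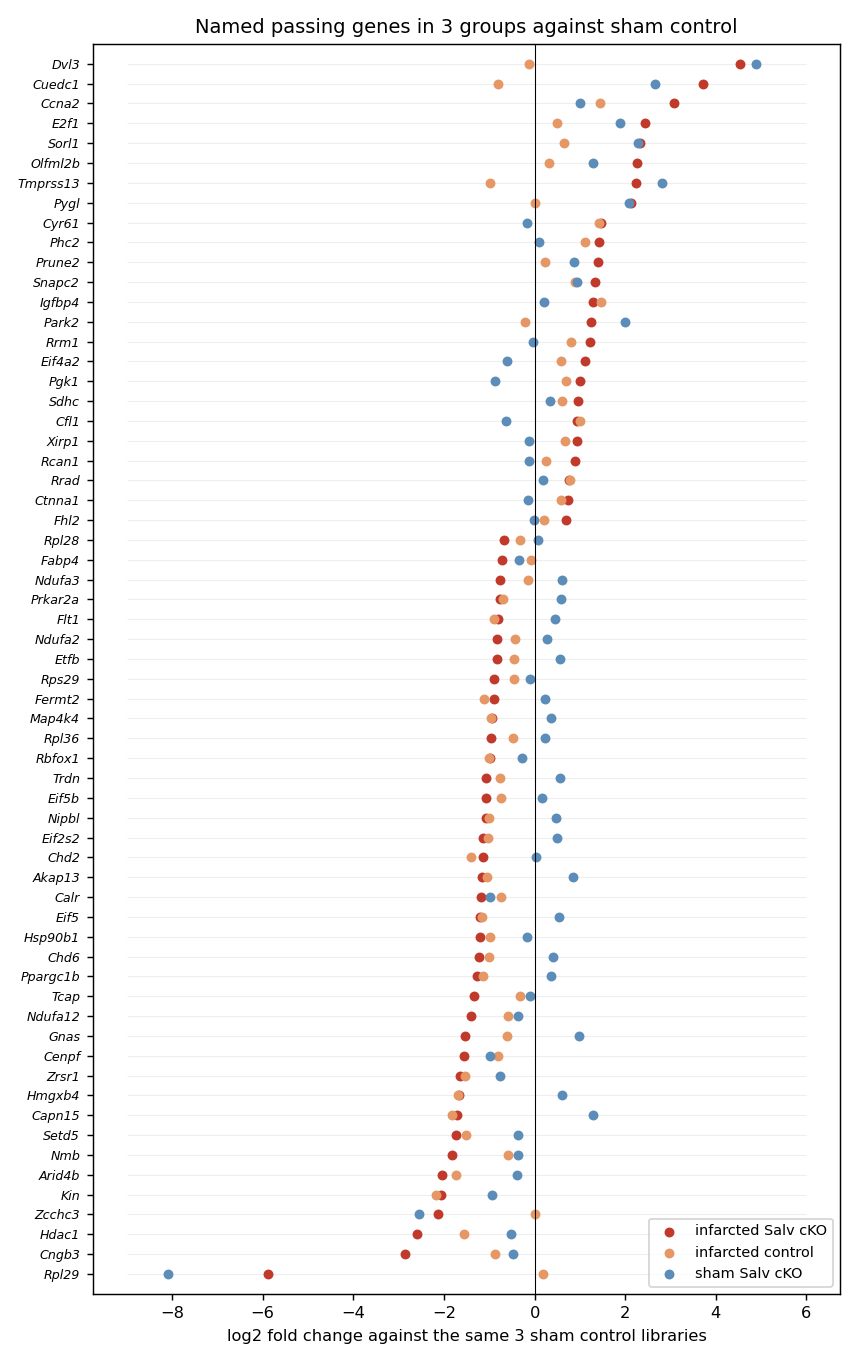
Log2 fold change of 62 named passing genes (mt-Nd3 left out) in infarcted Salv cKO, infarcted control and sham Salv cKO, each against the same 3 sham control libraries, so that the 3 sets of points are not independent. Dvl3, Pygl and Zcchc3 have like values in both mutant groups, while Cyr61, Flt1, Map4k4 and Eif5 have like values in both infarcted groups, for Eif5 -1.19 and -1.16.

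Set side by side, the named genes differed in which other group had a like value, though no test of likeness was run. For Dvl3 the log2 fold changes against sham control were 4.53 in infarcted Salv cKO, -0.13 in infarcted control and 4.88 in sham Salv cKO. For Chd6 they were -1.23, -1.0 and 0.41, for Eif5 -1.19, -1.16 and 0.54, and for Flt1 -0.80, -0.89 and 0.44. For Tcap they were -1.33, -0.32 and -0.11, and for Cngb3 -2.85, -0.88 and -0.47. Over all genes, 123 passed in infarcted control against sham control (1.08%) and 2069 between infarcted and sham Salv cKO (18.2%). Counts of passing genes depend on the test threshold and on the spread estimate that the 4 groups share, and are not distances.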

How the data were processed

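Each deposited file gives the raw counts of 1 library for 46983 gene symbols, and a deposited table of the series repeats them. Per the submitters' processing notes the authors used STAR 2.5, DESeq2 and the mm10 genome. The sources used here do not give the counting tool, annotation or strand setting, so reads of antisense or overlapping genes cannot be told apart. Libraries were made from TRAP RNA with the Ion Total RNA-Seq kit and sequenced on the Ion Proton, per the labels' protocols.

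The 12 TRAP libraries were fitted together in R 4.3.3 with edgeR 4.0.16 (filterByExpr, TMM, robust quasi-likelihood fit, two-sided test, no block), so the 4 groups share 1 estimate of spread. A gene is said to pass, rise or fall where its p, adjusted by Benjamini-Hochberg over all 11393 tested, is below 0.05. Levels are TMM-scaled CPM, as mean ± SD with n = 3 libraries, except that summed levels of gene lists use library totals. The test was checked on simulated counts. Replicates differed by more than sampling noise. Positions, lengths and biotypes come from GENCODE vM21 (GRCm38), where 44145 symbols matched directly and 783 by an older symbol. Upstream sequences are from RefSeq GRCm38.p6. Copies are transcripts of at least 95% identity over 200 bases or more.

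The text names Sav1, Yap1, Park2, Myh6, Myh7, Nppa and Nppb whatever they show. It adds at most 12 passing genes from each end of the fold changes, where the mean log2 CPM is 3 or more and the groups do not overlap, and at most 4 passing members of each of 33 gene lists (967 genes). Symbols of predicted genes, clones and pseudogenes enter the counts but are not named by it, which leaves out 24 passing genes. A further gene within the rule is not reported here but is part of the counts. Other genes given with values were picked from the lists, or as copies of named genes, after their values were seen. The members, the lists and the rule were chosen with earlier results of these data known. The Y chromosome list had 0 genes tested. Alternatives were RLE factors, DESeq2 1.42.0, no filter, the 2 groups alone, a replicate block, thinned counts and each library left out. Library totals, removal of length and GC trends, and sums with copies were added after seeing the data.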

Additional observations from a re-analysis of the deposited data

How the results depend on the processing

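The 343 genes that passed became 603 with DESeq2 (134 higher, 469 lower), 712 with no filter (152 and 560), 210 with the 2 groups alone (39 and 171), 517 with a replicate block (437 lower), 820 without the 2 libraries with Y chromosome counts (200 and 620) and 204 with library totals (115 and 89). Leaving out 1 library gave 44 to 773 (19 to 182 higher, 25 to 591 lower). RLE factors (317), thinning (273) and removal of length and GC trends (400) stayed within 1.5 times. Whether the replicate numbers pair the libraries cannot be settled here, since the labels do not say so and only 3 matches exist. Same-numbered infarcted Salv cKO and sham control libraries had residual correlations of -0.106, -0.157 and -0.12, and 0 of 3 correlated best with its own number.

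Infarcted control against sham control (123) gave 467 with DESeq2, 566 with no filter, 408 with the replicate block, 673 without the Y libraries, 0 with library totals, 77 with length and GC trends removed, and 0 to 628 with 1 library left out. At an unadjusted p below 0.05, 1604 genes passed in the fit as reported. Sham Salv cKO against sham control (291) gave 622 with DESeq2, 651 with no filter, 127 with 2 groups alone, 84 without the Y libraries, 440 with library totals and 104 to 378 with 1 library left out. Infarcted Salv cKO against infarcted control (38) gave 74 with DESeq2, 106 with no filter, 58 with 2 groups alone and 22 to 35 with 1 library left out. Against sham Salv cKO (2069) leaving out 1 library gave 1100 to 2005. The distance of 0.783 was 2.38 over the 500 genes of largest difference, 0.589 over genes with a mean log2 CPM of 5 or more and 0.690 with a prior count of 5. Its difference from sham Salv cKO, -0.0891, was -0.00286 for genes with a mean log2 CPM of 5 or more (p = 1, exact permutation test) and -0.0224 without sham control replicate 2 (p = 0.8).

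Of the 64 named genes that passed, 63 kept their sign in every setting run for them and 10 passed in every one (Dvl3, Cuedc1, Sorl1, Olfml2b, Tmprss13, Pygl, Rpl29, Cngb3, Zcchc3 and Ndufa12). The exception in sign was mt-Nd3, at -0.083 (adjusted p = 0.935 by edgeR) when summed with its copy, because the counts of the copy moved the other way. The cause of the other changes was not tested. Depth limits the low genes, with sham levels near the floor for Dvl3 and Ccna2. In sham control library 1, Cuedc1 and E2f1 each had 2 counts, below the floor of 3.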

Other observations

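Other genes passed in all 6 fits that left out 1 library and fall outside the rule for named genes. They were chosen after their values were seen. Srrm2, a large scaffold of splicing factors, was at 316, 267 and 344 CPM in sham control and at 120, 95.7 and 168 CPM in infarcted Salv cKO, a log2 fold change of -1.28 (adjusted p = 0.00103 by edgeR), and of -1.03 in infarcted control. Mylk3, the cardiac kinase of myosin light chain, went from 985, 580 and 790 CPM to 399, 394 and 346 CPM (log2 fold change -1.05, adjusted p = 0.00406), with -0.37 in infarcted control and 0.09 in sham Salv cKO. Wnk4, a kinase that controls ion cotransport, went from 37.9, 30.0 and 26.3 CPM to 12.1, 14.2 and 7.57 CPM (log2 fold change -1.45, adjusted p = 0.00364). Tmem100, a membrane protein known from endothelium, went from 7.07, 12.3 and 9.07 CPM to 0.886, 0.929 and 2.46 CPM (log2 fold change -2.80, adjusted p = 0.00246), and it also passed against infarcted control (-2.17, adjusted p = 0.0368). Fkbp10, a chaperone of collagen, went from 24.4, 19.5 and 21.7 CPM to 9.64, 8.05 and 7.37 CPM (log2 fold change -1.37, adjusted p = 0.00634) and was at -1.53 against infarcted control (adjusted p = 0.00287). Pccb, a subunit of propionyl-CoA carboxylase, which breaks down odd-chain fatty acids and some amino acids, went from 311, 259 and 254 CPM to 110, 114 and 167 CPM (log2 fold change -1.08, adjusted p = 0.00364). No group overlapped another between infarcted Salv cKO and sham control for these 6 genes.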
